A study of Mus musculus with 6 samples.

Results

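Platelets are anucleate fragments of megakaryocytes and carry the RNA that these cells made, so a small set of genes marks them in almost any tissue. The set described here was chosen by symbol from what is known of platelets, with earlier results of these data known. Its 9 genes are Pf4, Ppbp, Gp1ba, Gp1bb, Gp9, Gp6, Treml1, Tubb1 and Clec1b. They are 9 of the 47729 genes counted, and all 9 were among the 14625 genes with enough reads to be tested. RNA was sequenced from lung endothelial cells (ECs) of male mice, 14 weeks old by the labels, in 3 WT and 3 leene-KO (KO) libraries. Every mouse of both groups had received angiotensin II (AngII), a peptide that raises blood pressure, at 1000 ng/kg/min for 2 weeks from an osmotic pump, and no library without AngII was analysed here. The KO mice carry a CRISPR deletion of the mouse region syntenic to the human long noncoding RNA gene LEENE (LINC00520), in every cell and not in ECs alone. The labels name CD31 as the antigen used to enrich the cells, while the methods of the study name CD144. The labels also describe a pool of 3 mice per group. Each library may thus be 1 mouse or a pool, or the 3 libraries of a group may share 1 pool. The p-values measure only the spread between libraries, which in the last case is not a spread between mice.

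Platelets store chemokines and adhesion proteins in alpha granules and release them at sites of vessel injury. They attach through glycoprotein complexes on their surface, which bind von Willebrand factor and collagen, and through the C-type lectin receptor CLEC-2, which binds podoplanin. Of the antigens named for the enrichment, CD31 is a protein of platelets as well as of ECs, whereas CD144 (VE-cadherin) is an EC protein that platelets are not known for. The lung is a tissue where megakaryocytes also lodge and shed platelets. In a bulk library, fewer or more platelets and a change in RNA per platelet cannot be told apart.

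All 9 genes were higher on average in KO, but none passed the test between genotypes. The 9 genes together gave 58.6, 37.7 and 43.1 CPM (counts scaled to a library of 1000000, with library sizes adjusted by edgeR's TMM) in WT 1, 2 and 3 and 108, 87.1 and 53.5 CPM in KO 1, 2 and 3. The KO libraries 1 and 2 thus lay above every WT library, and KO 3 lay inside the WT range. The 9 log2 fold changes (KO against WT) ran from 0.60 for Gp6 to 0.96 for Ppbp with a median of 0.78, beside a median of 0.03 over all genes tested. The test was the quasi-likelihood test of edgeR, with p-values adjusted by Benjamini-Hochberg over all genes tested. With 0.05 as the limit of the adjusted p, 0 of 9 were called, beside 0.109% of all genes in either direction and 0.0342% higher in KO. At an unadjusted p under 0.05, 3 of 9 were higher in KO (Pf4, Ppbp and Gp9), beside 5.62% of all genes higher in KO and 10.3% in either direction. DESeq2 also called 0 of 9, beside 1.21% of the 15470 genes to which it gave an adjusted p. It had 4 of 9 higher at an unadjusted p under 0.05, beside 3.69% of 26134 genes. Those 26134 include genes of low counts that the edgeR filter removed, so this share is not comparable with the others. On the 14625 genes, limma-voom called 0 of 9 (0.178%), with 3 higher at an unadjusted p under 0.05 (7.12%). The 9 genes are from one cell lineage and move together, so their shared direction (9 of 9 above 0, beside 54.1% of all genes) is not 9 separate observations. The set was also chosen with earlier results of these data known, so these shares describe it and do not test it.

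The sequences upstream of these genes show how far the set shares the letters that megakaryocyte transcription factors are known to prefer. GATA1 binds GATA letters and FLI1, an ETS factor, binds GGAA letters, and both drive platelet genes. The 250 bases before the RefSeq transcript start (genome build GRCm38.p6) were searched on both strands. The GATA letters were the run AGATAA or, with another first letter, the run TGATAA. The ETS letters were the run AGGAAG or, with another first letter, the run CGGAAG. No match overlaps another in the windows of these genes. The letters were chosen after the sequences had been seen. Below, each sequence runs 5′ to 3′ on the strand of its gene, and capitals mark a match on either strand. Gp1ba (chr11:70638872-70639121, plus strand) is shown because it alone of the 9 holds both kinds, Gp9 (chr6:87777820-87778069, plus strand) and Pf4 (chr5:90772185-90772434, plus strand) because their ETS letters lie close to the start, Gp6 (chr7:4397745-4397994, minus strand) for its GATA letters, and Ppbp (chr5:90768268-90768517, plus strand) because the most abundant of the 9 holds neither.
Gp1ba: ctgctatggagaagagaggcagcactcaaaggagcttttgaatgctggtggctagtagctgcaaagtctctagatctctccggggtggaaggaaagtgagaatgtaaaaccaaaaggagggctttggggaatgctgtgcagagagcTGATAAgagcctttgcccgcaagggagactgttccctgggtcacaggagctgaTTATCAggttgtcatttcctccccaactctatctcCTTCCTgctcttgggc
Gp9: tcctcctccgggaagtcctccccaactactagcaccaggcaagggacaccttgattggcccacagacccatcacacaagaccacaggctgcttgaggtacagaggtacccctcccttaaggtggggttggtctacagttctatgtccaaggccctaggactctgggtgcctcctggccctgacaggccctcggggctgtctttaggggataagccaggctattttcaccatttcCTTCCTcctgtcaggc
Pf4: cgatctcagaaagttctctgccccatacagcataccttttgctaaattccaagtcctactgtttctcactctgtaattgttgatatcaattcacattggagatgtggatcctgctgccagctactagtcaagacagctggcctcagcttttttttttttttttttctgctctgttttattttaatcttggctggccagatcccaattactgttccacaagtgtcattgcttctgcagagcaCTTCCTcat
Gp6: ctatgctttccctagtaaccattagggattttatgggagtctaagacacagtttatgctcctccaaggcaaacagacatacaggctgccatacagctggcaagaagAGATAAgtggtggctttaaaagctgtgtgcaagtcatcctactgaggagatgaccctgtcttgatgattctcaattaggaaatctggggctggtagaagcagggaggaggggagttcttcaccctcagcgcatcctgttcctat
Ppbp: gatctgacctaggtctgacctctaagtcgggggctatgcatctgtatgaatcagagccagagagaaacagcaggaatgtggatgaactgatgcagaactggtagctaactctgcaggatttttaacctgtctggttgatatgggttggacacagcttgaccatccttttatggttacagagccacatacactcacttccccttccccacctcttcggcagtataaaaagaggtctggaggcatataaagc

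GATA letters stood in 3 of the 9 windows (Gp1ba, Gp6 and Clec1b), beside 16.6% of 32851 RefSeq windows of the same length. ETS letters stood in 5 of 9 (Pf4, Gp1ba, Gp1bb, Gp9 and Tubb1), beside 39.2% of all windows. Within 20 bases of the start they stood in 3 of 9, at positions -9 to -4 for Pf4 and -16 to -11 for Gp1ba and Gp9 (-1 is the last base before the start), beside 4.8% of all windows. The limit of 20 bases lies just outside these matches, and the letters were chosen after the sequences had been seen. These shares are therefore descriptions and not tests. Gp1ba carried TGATAA at -104 to -99 and, on the opposite strand, at -51 to -46, and windows with both GATA and ETS letters made up 5.49% of all. The windows of Ppbp and Treml1 held no match. The RefSeq start of Tubb1 lies upstream of the start in the annotation that was counted, so its window may not be the one used in these cells. A match describes the letters only, and the absence of these letters says nothing of the factor.

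**Figure D1:**
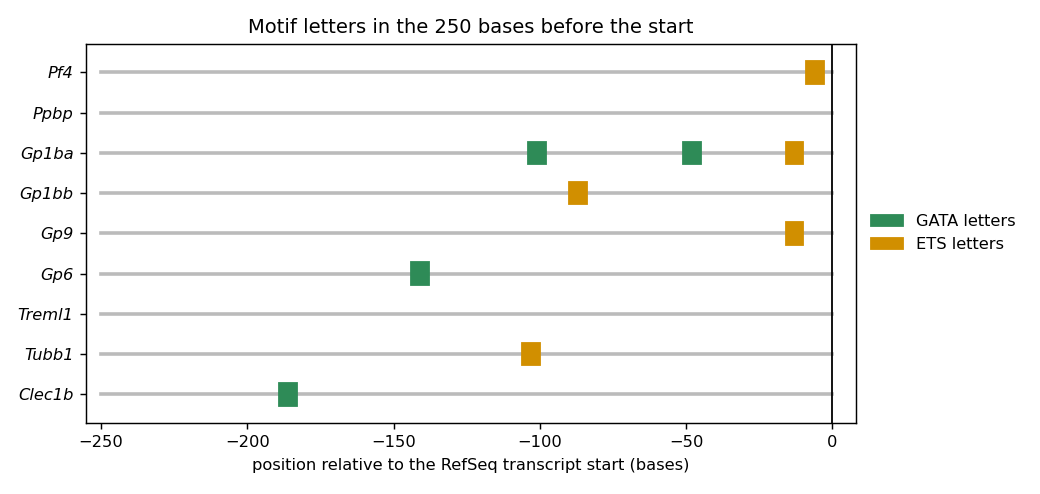
Positions of GATA letters (green) and ETS letters (orange) on either strand in the 250 bases before the RefSeq start of each gene, with the start at 0 on the x axis (bases). ETS letters lie within 20 bases of the start in Pf4, Gp1ba and Gp9, and Ppbp and Treml1 hold no match.

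The chemokines of the alpha granule had the highest levels of the set per exon length, although Tubb1 had more counts than Pf4 in 4 of 6 libraries. Pf4 (chr5:90772435-90773383) encodes platelet factor 4, which binds heparin, and its neighbour Ppbp (chr5:90768518-90770063) encodes pro-platelet basic protein, the precursor of a neutrophil-attracting chemokine. Pf4 stood at 8.59, 5.93 and 6.37 CPM in WT 1, 2 and 3 and at 14.5, 12.6 and 8.86 CPM in KO 1, 2 and 3. The groups did not overlap, but KO 3 was only just above WT 1. Its WT mean was 6.96 CPM, with an SD of 1.43 in WT and 2.86 in KO (n = 3 libraries each), and the fitted KO level was 1.71 times the WT level. On the log2 scale this fold change was 0.78 with an SE of 0.23 (95% interval 0.24 to 1.32, edgeR adjusted p = 0.365). Ppbp stood at 26.2, 16.5 and 15.5 CPM in WT and at 46.8, 44.4 and 22.4 CPM in KO. Here the third KO library fell below the first WT library, and the groups overlapped. The means were 19.4 ± 5.94 and 37.9 ± 13.4 CPM (SD, n = 3 each), and the log2 fold change was 0.96 with an SE of 0.32 (95% interval 0.23 to 1.69, edgeR adjusted p = 0.388), the highest of the 9.

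**Figure D2:**
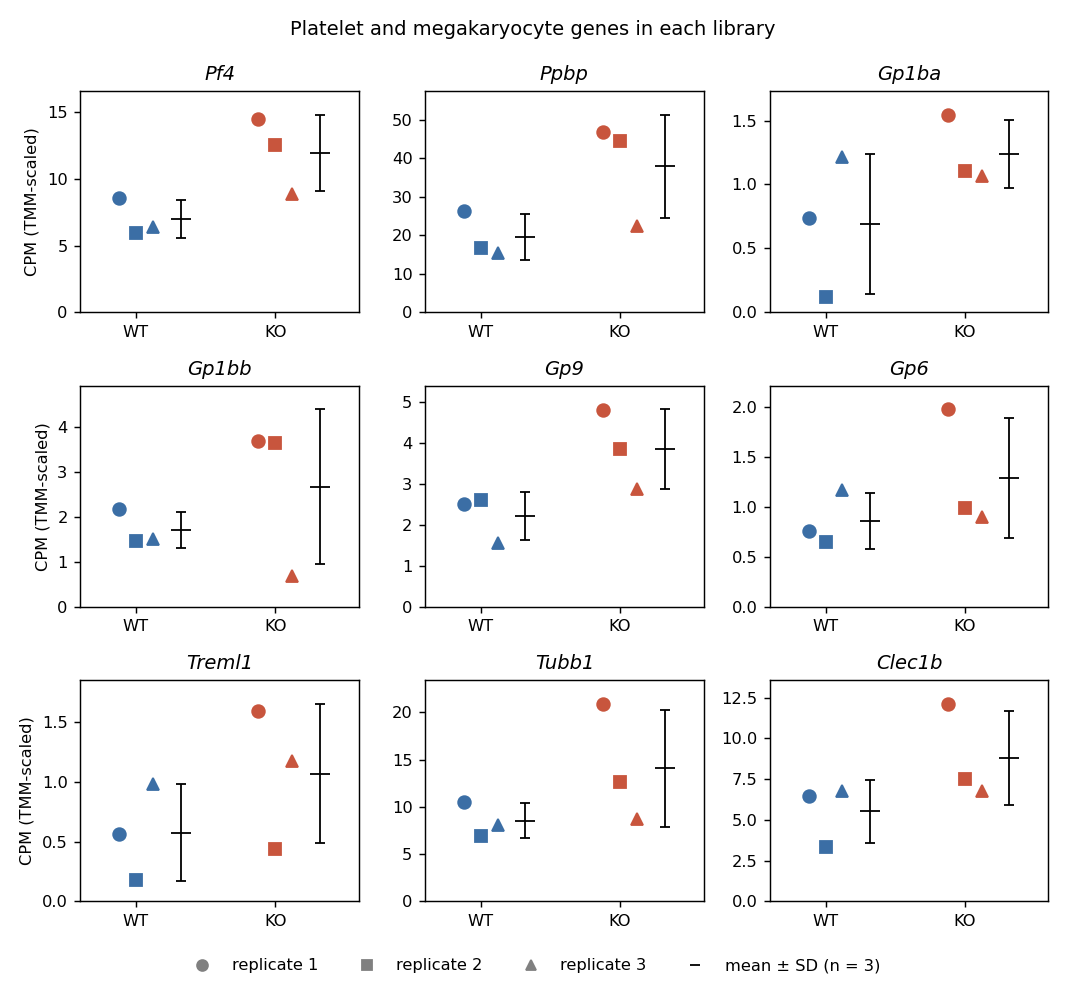
TMM-scaled CPM (y axis, starting at 0) of each of the 9 genes in the 3 WT (blue) and 3 KO (red) libraries, 1 symbol per replicate number, with the mean ± SD (n = 3) in black. KO 1 is the highest library for all 9 genes, and every KO point lies above every WT point for Pf4, Gp9 and Clec1b.

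The other CXC chemokine genes near Pf4 and Ppbp on chromosome 5, which are made by epithelium, stroma and leukocytes, gave values in both directions. Of 5 such genes 3 were tested, and 0 were called. Cxcl5, which attracts neutrophils, stood at 4.75, 8.37 and 5.38 CPM in WT and at 4.08, 2.32 and 1.24 CPM in KO, so the groups did not overlap and KO was the lower. The log2 fold change was -1.29 with an SE of 0.43 (edgeR adjusted p = 0.394). Cxcl15, a lung epithelial chemokine, had a log2 fold change of 0.79 and overlapping groups.

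The von Willebrand factor receptor is a complex of the products of Gp1ba, Gp1bb, Gp9 and Gp5. Gp9 (chr6:87778072-87779768), the small subunit that stabilizes the complex, stood at 2.50, 2.61 and 1.55 CPM in WT and at 4.81, 3.86 and 2.86 CPM in KO. The groups did not overlap, and the lowest KO library was again the third. Its log2 fold change was 0.78 with an SE of 0.30 (95% interval 0.07 to 1.48, edgeR adjusted p = 0.465). Gp1bb (chr16:18620319-18622403), the beta subunit of GPIb, stood at 2.18, 1.47 and 1.50 CPM in WT and at 3.70, 3.64 and 0.690 CPM in KO. KO 1 and 2 were above all WT libraries, whereas KO 3 was the lowest of the 6, with 20 counts. The log2 fold change of 0.63 therefore had an SE of 0.57 (95% interval -0.70 to 1.95, edgeR adjusted p = 0.698). Gp1bb shares 593 of its 1881 exon bases (31.5%) with Sept5 on the same strand, and reads there were not counted, so its level is understated. Gp1ba (chr11:70639122-70642036), the alpha subunit that holds the binding site, was counted 30, 4 and 26 times in WT and 36, 30 and 31 times in KO. WT 2 stood far below the other libraries (0.117 CPM, exact Poisson 95% interval 0.0320 to 0.301, which covers counting error only), and WT 3 lay between the KO libraries at 1.22 CPM. The log2 fold change was 0.88 with an SE of 0.69 (edgeR adjusted p = 0.650). Gp5, not one of the 9, had WT levels of 0.441, 0.852 and 0.983 CPM and KO levels of 1.55, 1.36 and 0.690 CPM, with overlapping groups and a log2 fold change of 0.67 (edgeR adjusted p = 0.633).

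Clec1b, Gp6 and Treml1, the other receptor genes of the set, stood below the chemokine genes in level per exon length. Clec1b (chr6:129397297-129409335), which encodes CLEC-2, stood at 6.49, 3.32 and 6.79 CPM in WT and at 12.1, 7.50 and 6.80 CPM in KO. The groups did not overlap, by a margin of the last digit printed. Its log2 fold change was 0.67 with an SE of 0.33 (95% interval -0.10 to 1.44, edgeR adjusted p = 0.520). Clec1b shares 3.61% of its exon bases with Clec9a. Gp6 (chr7:4363965-4397744), the collagen receptor glycoprotein VI, was counted 31, 22 and 25 times in WT (0.759, 0.646 and 1.17 CPM) and 46, 27 and 26 times in KO (1.98, 0.993 and 0.897 CPM). Only KO 1 was above all WT libraries. The log2 fold change was 0.60 with an SE of 0.46 (edgeR adjusted p = 0.647). Treml1 (chr17:48359916-48367174), a receptor stored in alpha granules and brought to the surface on activation, was counted 23, 6 and 21 times in WT (0.563, 0.176 and 0.983 CPM) and 37, 12 and 34 times in KO (1.59, 0.441 and 1.17 CPM). The second library was the lowest in both groups, and the groups overlapped. Its log2 fold change was 0.93 with an SE of 0.70 (edgeR adjusted p = 0.643). The 95% intervals of the log2 fold changes of Gp1ba, Gp6 and Treml1 reach from -0.72, -0.47 and -0.69 to 2.48, 1.66 and 2.55.

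Partners of the platelet receptors that other cells also make lay on both sides of 0. Of 13 signalling genes below glycoprotein VI and CLEC-2, 0 were called, 4 had a log2 fold change above 0 and the median was -0.14. Fcer1g, the chain that pairs with glycoprotein VI, had a log2 fold change of 0.15 and Syk, the kinase that both receptors recruit, -0.33. The Src kinases Lyn and Fyn had log2 fold changes of 0.34 (edgeR adjusted p = 0.498) and -0.53 (edgeR adjusted p = 0.341). Of the 13, 1 (Lyn) had all KO libraries above all WT libraries, beside 8.59% of all genes. For 2 of the 13, Fyn among them, all KO libraries lay below, beside 9.2%. Of the 7 ligand genes 0 were called, and the median was -0.03. Vwf, made by ECs as well as megakaryocytes, had a log2 fold change of -0.14, and Pdpn, which encodes podoplanin, -0.31 (edgeR adjusted p = 0.676). Of 9 genes for other alpha granule cargo, most of them also active in ECs or stroma, 0 were called and the median was 0.01. F5, which encodes coagulation factor V, had a log2 fold change of 0.59 and Thbs1, which encodes thrombospondin, -0.66.

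Tubb1 (chr2:174450695-174457882) encodes the beta-tubulin of the platelet's marginal band, the microtubule ring that gives it its disc shape. It stood at 10.6, 6.90 and 8.10 CPM in WT and at 20.9, 12.6 and 8.73 CPM in KO. KO 1 was far above the rest, and KO 3 lay inside the WT range. The log2 fold change was 0.72 with an SE of 0.32 (95% interval -0.03 to 1.47, edgeR adjusted p = 0.498). The 7 other beta-tubulin genes, which most cells use, lay the other way. All 7 had a log2 fold change below 0 (45.9% of all genes), with a median of -0.59, and the sign of all fitted ones held under each scaling tried. Of the 7, 0 were called, 6 were lower at an unadjusted p under 0.05 (4.68% of all genes), and for 5 the KO libraries all lay below the WT libraries (9.2%). Without WT 2, 4 of the 7 were called, in a fit that called 791 genes in all against 16 with every library. DESeq2 (187 genes in all), leaving out the filter on low counts (152), total-count scaling (123) and total counts without mitochondrial genes (114) each called 1 of the 7. Tubb5, the most abundant, stood at 321, 222 and 282 CPM in WT and at 181, 194 and 201 CPM in KO (log2 fold change -0.52, edgeR adjusted p = 0.429). Beta-tubulin genes are close in sequence, and reads that align to several of them were dropped, so their levels are uncertain.

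As a measure that needs no scaling between libraries, Tubb1 made up 2.20%, 2.05% and 1.92% of the counts of the 8 beta-tubulin genes in WT and 7.26%, 4.35% and 2.92% in KO. The groups did not overlap, and the Wilson 95% interval of KO 3 (2.58 to 3.29%) did not meet that of WT 1 (2.01 to 2.42%), although these intervals cover counting error only. The means were 2.06 ± 0.141% and 4.84 ± 2.22% (SD, n = 3 each), with a two-sided exact permutation p of 0.1, the smallest that 3 against 3 libraries allow. This ratio was chosen after its values had been seen, and it holds both the higher Tubb1 and the lower other tubulins.

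**Figure D3:**
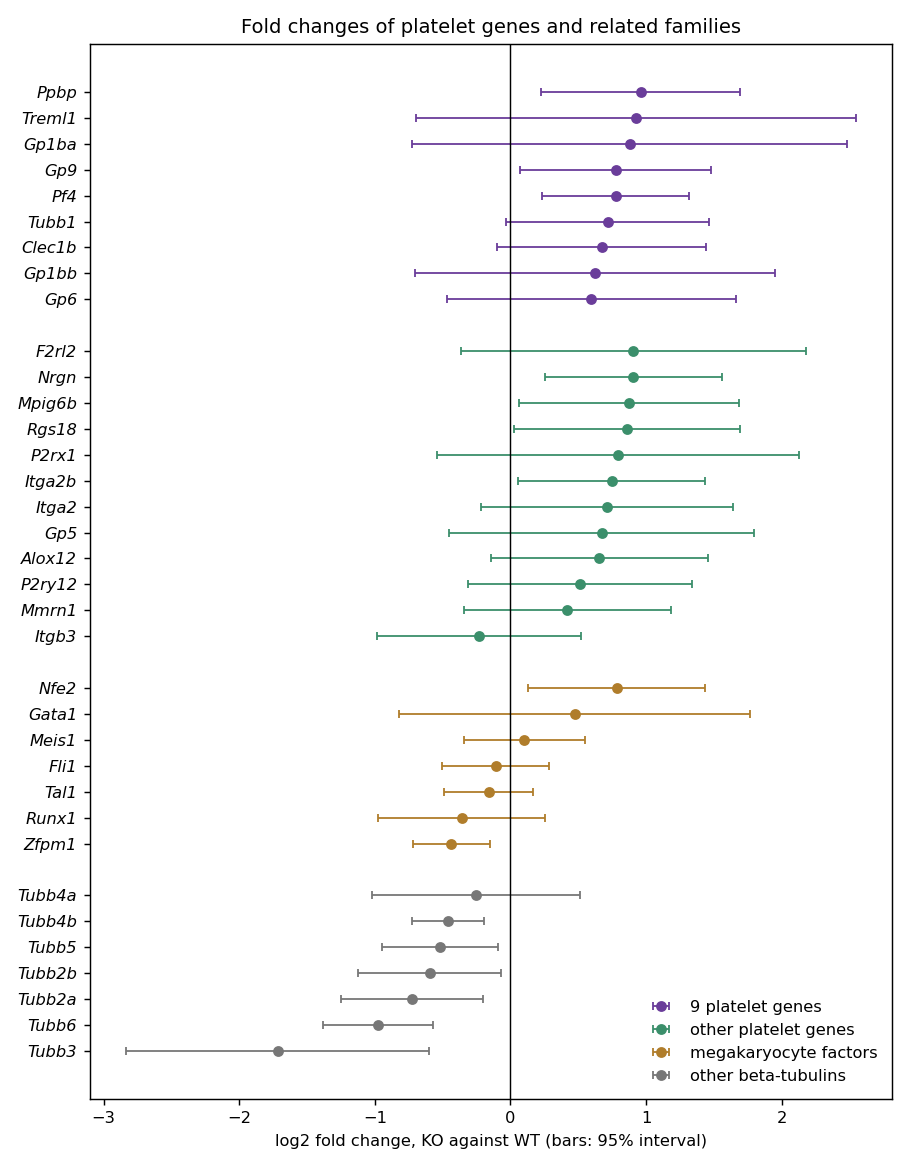
Log2 fold change (KO against WT, x axis) with its 95% interval from edgeR for the 9 genes (purple), 12 other platelet genes (green), 7 megakaryocyte transcription factors (brown) and 7 other beta-tubulins (grey). All 9 genes lie above 0 and all 7 other beta-tubulins below 0, and no gene shown passed the adjusted threshold.

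Levels were compared between genes per length (RPKM, from CPM and exon length). In the mean over the 6 libraries the order was Ppbp at 26.4 RPKM, Pf4 at 13.1, Tubb1 at 8.03, Gp9 at 3.44, Clec1b at 1.40, Gp1bb at 1.17, Treml1 at 0.658, Gp1ba at 0.355 and Gp6 at 0.182. The first 5 kept this order in 6 of 6 libraries. Below them the order was not fixed: Clec1b was above Gp1bb in 4 of 6 libraries, and each of the next 3 neighbours held its order in 5 of 6. The place of Gp1bb also rests on its shared bases. Over its 1288 unshared bases it would stand at 1.69, 1.14 and 1.16 RPKM in WT and at 2.87, 2.83 and 0.536 RPKM in KO.

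The share of each gene within the set does not depend on scaling. Summed over the 9 genes, the WT libraries held 2394, 1284 and 921 counts and the KO libraries 2510, 2368 and 1551. Pf4 was between 13.4% and 16.6% of these counts in the 6 libraries, and no order by genotype was seen. Ppbp was between 35.8% and 51.0%, lowest in WT 3 (Wilson 95% interval 32.8 to 39.0%) and highest in KO 2 (49.0 to 53.0%), where the intervals cover counting error only and these libraries were picked as the extremes of 6. Ppbp counts were 2.43 to 3.53 times those of Pf4. Clec1b was 15.7% of the set in WT 3 and 8.61% in KO 2, and Gp1bb fell to 1.29% in KO 3 beside 3.43 to 4.18% in the other 5 libraries (interval in KO 3 0.836 to 1.98%).

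Across the 6 libraries the 9 genes tended to move together, some pairs closely and others loosely. Over their 36 pairs the median Pearson correlation of log2 CPM was 0.70, 35 were above 0, and the highest was 0.98 for Pf4 and Ppbp. Only Gp1bb and Treml1 had a correlation below 0, of -0.02. Other low values were 0.16 for Gp9 and Treml1, 0.21 for Gp1ba and Gp9 and 0.26 for Gp1ba and Gp1bb. These correlations describe 6 libraries that share depth and genotype, and carry no p. Against the mean profile of the other members, Clec1b had the highest correlation, 0.96, followed by Tubb1 at 0.94 and Pf4 at 0.91, and Gp1bb the lowest, 0.51. Of 12848 genes above a mean log2 CPM of 0, Clec1b ranked 17th in likeness to the other members and Gp1bb ranked 2050th. Gp1ba at 429, Treml1 at 1058 and Gp9 at 1319 also followed the other members loosely. The shared profile was highest in KO 1 and lowest in WT 2: KO 1 was the highest library for 9 of 9 genes, and WT 2 the lowest for 6.

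The 10 genes outside the set most like its mean profile were Draxin, Mkrn1, Zfp61, Rab40c, Treml2, Cyb561d1, Itga2b, Ddx56, Wdhd1 and Ercc6, with correlations from 0.99 to 0.97. Of these, Itga2b alone was on the list of other platelet genes. With 6 libraries and 12847 genes, likeness of this size is also found among genes with no known tie to platelets.

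Other genes that platelets and megakaryocytes are known for were described by the same measures. Of 13 such genes 12 were tested and 0 were called (0.109% of all genes). At an unadjusted p under 0.05, 4 were higher in KO (Nrgn, Rgs18, Mpig6b and Itga2b), beside 5.62% of all genes. A log2 fold change above 0 was seen for 11, beside 54.1% of all genes, with a median of 0.73. Nrgn, which encodes the calmodulin-binding protein neurogranin, stood at 20.3, 12.1 and 17.7 CPM in WT and at 38.2, 35.6 and 20.2 CPM in KO. KO 3 fell just below WT 1, so the groups overlapped. Nrgn had a log2 fold change of 0.91 with an SE of 0.28 (edgeR adjusted p = 0.369). Itga2b, which encodes the platelet integrin alphaIIb, stood at 2.91, 2.17 and 2.86 CPM in WT and at 6.23, 3.90 and 3.24 CPM in KO (log2 fold change 0.75, edgeR adjusted p = 0.468). It was the only one of the 12 whose groups did not overlap. That share is near the 8.59% of all genes with KO above WT. In likeness to the 9 genes, 11 of the 12 could be ranked among 12847 genes. Itga2b, Mpig6b, Alox12, Nrgn, Rgs18, F2rl2 and P2rx1 ranked between 7 and 102. P2ry12 at 669, Itga2 at 699 and Mmrn1 at 1141 ranked behind single genes of other cells, such as the EC gene Kdr at 465, the T cell gene Trac at 559 and the B cell gene Ms4a1 at 617. Itgb3 ranked last of the 11. It pairs with Itga2b on platelets but is also made by ECs and other cells, and it stood at 9.52, 18.8 and 12.3 CPM in WT and at 14.7, 12.7 and 7.21 CPM in KO. Its groups overlapped (log2 fold change -0.23, edgeR adjusted p = 0.806), and it ranked 7981st. KO 1 was the highest library for 11 of these 12 genes.

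**Figure D4:**
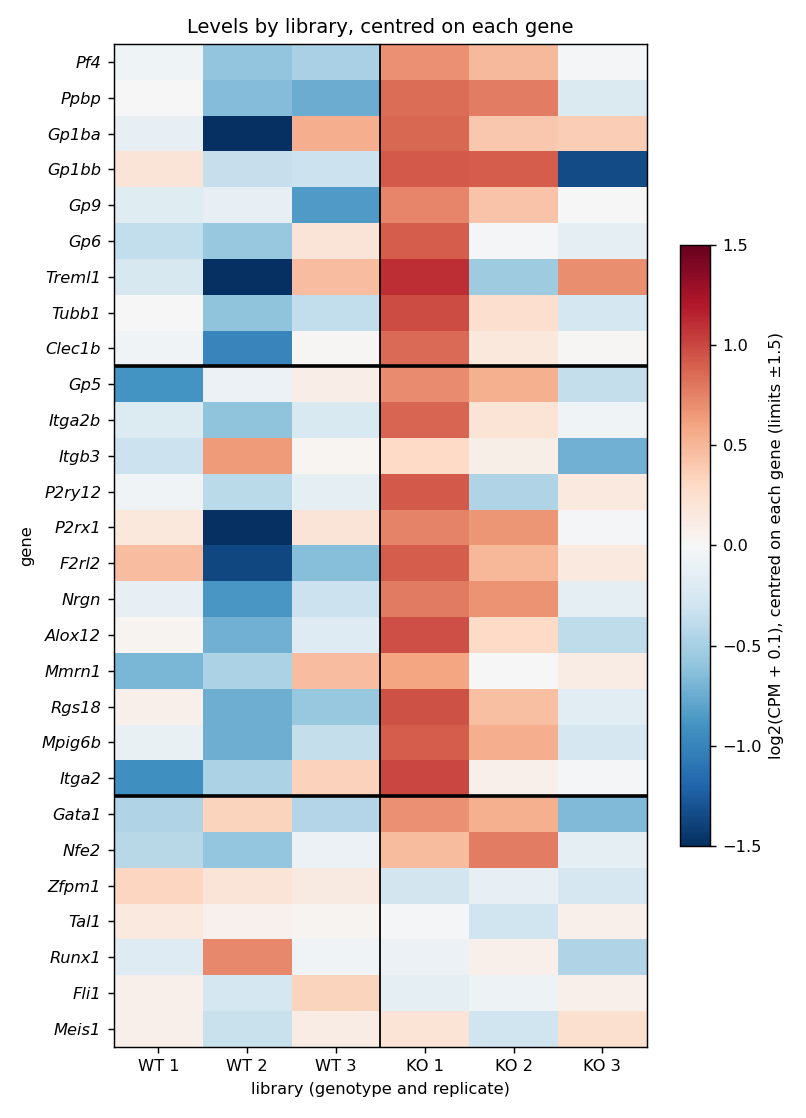
Log2(CPM + 0.1) of each tested gene in each library, centred on the gene's mean over the 6 libraries (colour, with values beyond 1.5 drawn at the limit), for the 9 genes, 12 other platelet genes and 7 megakaryocyte factors from top to bottom. KO 1 is the highest library for 9 of 9 and 11 of 12 platelet genes, and WT 2 is the lowest for 6 and 7 of them, while KO 1 is the highest for 1 of 7 factors.

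The transcription factors of the megakaryocyte lineage, most of which other blood cells or ECs also use, did not follow as a group. Of 8 such genes 7 were tested, 0 were called, and 3 had a log2 fold change above 0, with a median of -0.11. Nfe2, which drives the late genes of platelet release, stood at 3.11, 2.76 and 3.93 CPM in WT and at 5.85, 7.21 and 3.76 CPM in KO. KO 3 again lay inside the WT range. The log2 fold change of Nfe2 was 0.78 with an SE of 0.28 (edgeR adjusted p = 0.430). Gata1 was low, with 0.416, 0.793 and 0.421 CPM in WT and 1.03, 0.920 and 0.345 CPM in KO (log2 fold change 0.47, edgeR adjusted p = 0.762). Gfi1b, with 1 to 11 counts per library, was not tested. Zfpm1, the partner of GATA1 also known as FOG1, stood at 28.2, 25.6 and 24.7 CPM in WT and at 18.6, 20.7 and 18.8 CPM in KO. The groups did not overlap, with KO the lower (log2 fold change -0.44, edgeR adjusted p = 0.328). Fli1, shared with ECs, had a log2 fold change of -0.11 and overlapping groups.

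The direction of the 9 genes did not turn under any setting tried, but its size rested on single libraries. Without KO 1 the median log2 fold change was 0.50 and 0 of 9 had an unadjusted p under 0.05, and without WT 2 the median was 0.48 and 3 of 9 did. Without KO 3 the median was 0.95 and 5 of 9 did, while without KO 2 or WT 3 1 of 9 did. Scaling also mattered. On CPM of all counts, with no TMM, the 9 genes summed to 80.5, 36.5 and 37.6 in WT and 95.9, 81.1 and 55.4 in KO, and the groups overlapped for all 9, beside 4.46% of all genes with KO above WT on that scale. With TMM, 3 of 9 did not overlap (Pf4, Gp9 and Clec1b), beside 8.59% of all genes with KO above WT and 17.8% in either direction. In the edgeR test without TMM the median of all genes moved from 0.03 to -0.13 and that of the 9 genes from 0.78 to 0.55.

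**Figure D5:**
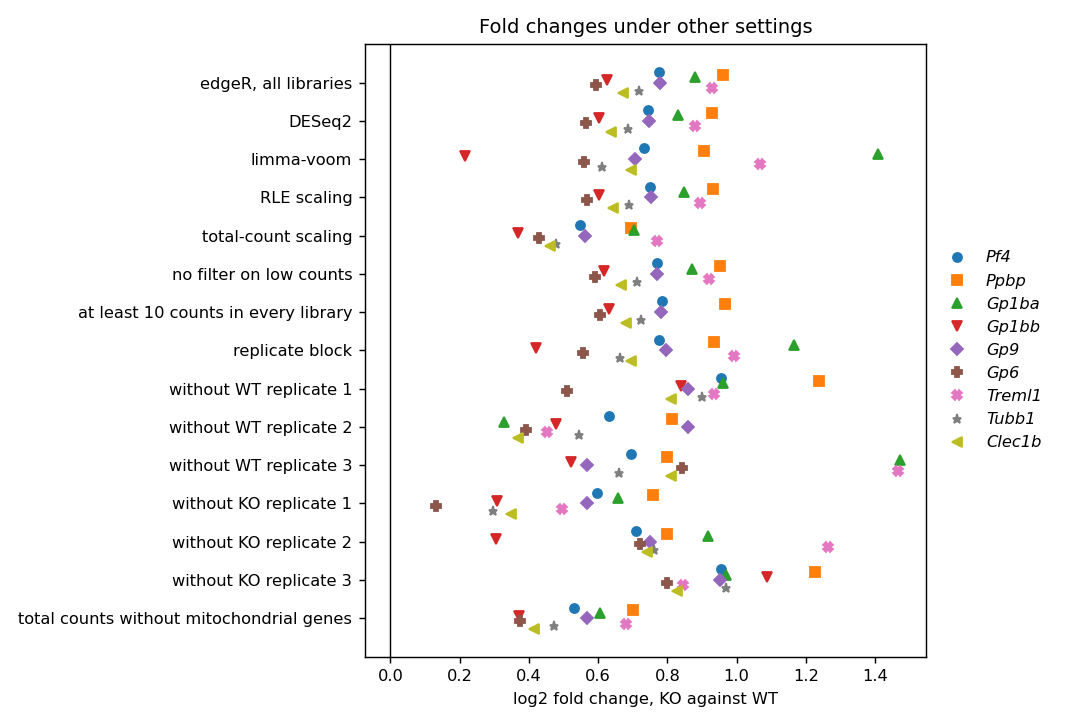
Log2 fold change (KO against WT, x axis) of each of the 9 genes in the edgeR test on all libraries and under each other test, scaling, filter, block or left-out library (y axis). All values lie above 0, from 0.13 to 1.47, and they lie lower without KO replicate 1 or WT replicate 2 than without KO replicate 3.

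Markers of other cell types were measured in the same libraries. EC markers were present in all 6 (9 genes, summed at 1239 to 2513 CPM in WT and 1580 to 2630 CPM in KO). All 7 B cell markers were higher in each KO library than in any WT library (8.59% of all genes). Their sums were 10.7 to 22.9 CPM in WT and 77.2 to 82.5 CPM in KO. All 7 were higher at an unadjusted p under 0.05 (5.62% of all genes). Of the 7, 3 were called higher (0.0342% of all genes, edgeR adjusted p of 0.0188 at the lowest). Over the settings tried 0 to 6 were called, with 0 under the block on the replicate number and in each fit that lacked a KO library. The T cell markers (6 genes, 0 called) summed to 2.62 to 4.45 CPM in WT and 6.69 to 9.20 CPM in KO. Their median log2 fold change was 1.08, with 6 of 6 above 0 and 4 higher at an unadjusted p under 0.05. The alveolar type II markers (5 genes, 0 called) had a median log2 fold change of 0.77, about as large as that of the platelet genes, with 5 of 5 above 0 and 0 at an unadjusted p under 0.05. This median rested on single libraries: it was 0.34 without WT 1 and 1.99 without WT 2. In the fit without WT 2, 5 of 5 had an unadjusted p under 0.05, as did 3188 genes in all. The B cell sum was alike in the 3 KO libraries, unlike the platelet sum, which was lowest in KO 3. Red cells travel in blood with platelets, and the erythroid markers (6 of 7 measured genes tested, 0 called, median log2 fold change 0.14) summed to 101, 62.0 and 61.9 CPM in WT and 86.6, 66.2 and 102 CPM in KO. KO 3 had the highest erythroid sum of the KO libraries and the lowest platelet sum of them, whereas WT 1 was the highest WT library for both sums. The erythroid groups overlapped. KO 1, the highest library for the platelet sum, was also the highest for the EC, B cell, T cell, macrophage, and monocyte and dendritic cell sums. It was not the highest for the erythroid, neutrophil, mast cell and basophil, or alveolar type II sums. The neutrophil (31.9 to 89.4 CPM in WT, 58.7 to 66.3 in KO), macrophage (137 to 352 and 188 to 439), monocyte and dendritic cell (21.8 to 60.8 and 41.6 to 62.0), mast cell and basophil (2.08 to 2.82 and 0.993 to 2.59) and alveolar type II (4934 to 46390 and 36566 to 44951) sums overlapped between the groups. Of 9 tested neutrophil markers, 3 (Camp, Ngp and Mmp9) were higher in each KO library than in any WT library. So were 2 of 7 monocyte and dendritic cell markers (Ccr2 and Cx3cr1), beside 8.59% of all genes. In both lists 0 were called in the edgeR test on all libraries, and 3 neutrophil markers, S100a8 among them, had a log2 fold change below 0. Over the settings tried, 0 to 2 of each of these 2 lists and 0 to 1 macrophage markers were called. The number called over all genes ran from 0 to 791. No library held 0 counts of any B cell, T cell, macrophage or alveolar type II marker, while 3 mast cell and basophil, 2 neutrophil and 1 erythroid marker were at 0 in at least 1 library. The part of any of these cells in the platelet values was not tested.

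Total counts per library lay between 24464324 and 35184063, of which the 9 genes were 921 to 2510. Mitochondrial genes took 37.4 to 54.5% of the counts, and the TMM factors ran from 0.874 in WT 3 to 1.37 in WT 1. The leene genes were not analysed here, since the counted annotation does not list them, and the genotypes rest on the labels.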

How the data were processed

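The files that the authors deposited, 1 for each library, hold raw counts of reads on each gene. Per the file headers they were made by featureCounts 2.0.0 over the exons of Ensembl release 84 genes (GRCm38), from uniquely aligned reads on the strand of the stranded kit, which separates antisense genes, and reads that fell in several overlapping genes are dropped. The submitters' processing notes name STAR 2.5.4b.

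Groups and replicate numbers came from the sample titles. Counts were tested in R 4.3.3 with edgeR 4.0.16 (filterByExpr, TMM, glmQLFit and glmQLFTest, genotype as the only term), with Benjamini-Hochberg adjustment over 14625 genes and a threshold of 0.05. Likeness is Pearson's r of log2 CPM (prior count 2) over 6 libraries, among genes with a mean log2 CPM above 0. Fits were also run on simulated data. The outcome is not reported here, so it gives no measure of how often changes of the size seen in the platelet genes would be called.

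The members and the gene lists were chosen with earlier results of these data known. Named genes are those of the lists and the 10 most like the members, and Sept5 and Clec9a, which share exon bases with members, were named after their values were seen. Upstream sequences are from RefSeq (GRCm38.p6), and all 9 symbols matched. Gp1ba, Gp6 and Treml1 rest on 4 to 46 counts a library, which limits their precision. Every pair of libraries of the same genotype differed beyond sampling noise (lowest chi-square 40.4 times its degrees of freedom). Alternatives were DESeq2 1.42.0, limma-voom (limma 3.58.1), RLE and total-count scaling, no filter or at least 10 counts in every library, a block on the replicate number, leaving out single libraries in turn, and, added after the data were seen, total counts without mitochondrial genes. The erythroid marker Ahsp was not analysed here. A further listed gene is not reported here and was left out of the counts.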

Additional observations from a re-analysis of the deposited data

How the results depend on the processing

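The number of the 9 platelet genes called was 0 under all 14 alternatives, and all 124 of their log2 fold changes stayed above 0 and on the same side of the threshold, between 0.13 and 1.47 with adjusted p-values from 0.0620 to 0.959. Gp1ba and Treml1 gave no value with at least 10 counts required in every library. The number of all genes called moved far more, from 16 to 187 with DESeq2, 26 with limma-voom, 26 with RLE scaling, 123 with total-count scaling, 152 with no filter and 114 with total counts without mitochondrial genes (added after the data were seen), and leaving out 1 library gave 0 to 791. The 791 came from leaving out WT replicate 2, and each of the 3 fits that lacked a KO library gave 0, with 986 to 1112 genes still at an unadjusted p under 0.05. The cause was not tested.

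The libraries share replicate numbers only. Same-numbered WT and KO libraries had correlations of -0.08, 0.22 and 0.01 in their deviations from the group means, so the numbers were not taken as pairs. With the replicate number as a block, edgeR called 0 genes (1776 at an unadjusted p under 0.05) and 0 of the 9 platelet genes (5 at an unadjusted p under 0.05). Not every library correlated best with its own number. With 3 libraries a group and 921 to 2510 counts over the 9 genes, the 95% intervals of 6 of the 9 fold changes span both directions.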
